A study of Mus musculus with 16 samples.

Results

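The urea cycle genes Cps1, Otc, Ass1, Asl, Arg1 and Nags were followed in liver SuperSAGE libraries of 16 mice. They were chosen by gene symbol, with the table's rows added up per symbol, and all 6 were found among 20826 symbols. The mice were male C57BL/6J (C57BL/6 in the protocol text), 4 weeks old at the start, and were fed for 18 weeks. The HFW group ate a high-fat diet (45% fat) with 1% WEPAK, the NW group a normal diet (10% fat) with 1% WEPAK, the HF group the high-fat diet and the N group the normal diet. WEPAK is a water-soluble extract of Pacific krill. Each group had 4 mice, each library came from 1 mouse, and all mice were wild type without any other treatment named in the labels.

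The urea cycle turns ammonia, which is toxic to the brain, into urea for excretion by the kidney. In mammals the complete cycle runs in hepatocytes, mainly in those around the portal vein. Nags makes N-acetylglutamate, the activator without which carbamoyl-phosphate synthetase 1 (Cps1) does not work. Cps1 and ornithine transcarbamylase (Otc) act in the mitochondrion and deliver citrulline. In the cytosol, argininosuccinate synthetase (Ass1) joins citrulline with aspartate, argininosuccinate lyase (Asl) splits the product into arginine and fumarate, and arginase (Arg1) releases urea and restores ornithine.

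SuperSAGE reads a short tag that begins at the NlaIII site, CATG, nearest to the poly(A) end of a captured transcript. A transcript yields 1 tag whatever its length, so levels here are in CPM, tags relative to the normalized library size, and are not divided by length. The tags below are those predicted at the last CATG of each gene's RefSeq transcript as held in GENCODE M21 (build GRCm38), 26 bases long, with the NlaIII site in capitals. They are shown because each gene's count rests on such a tag, and they may differ from the tags used for the deposited table.
Cps1: CATGcaacatttttttttctttcttt
Arg1: CATGtattccccattttagcataagt
Otc: CATGttccacccctattttaaaaaaa
Nags: CATGgcctctgggctgtcttgaggct
Asl: CATGgcagagactaaaggagtggctc
Ass1: CATGaacgtgcagggcgactatgagc
Gm5424: CATGaacgtgcagggtgactatgagc

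The Cps1 tag lies at chr1:67231152-67231177 on the plus strand, in the 3′ UTR and 108 bases before the transcript's end, and it is rich in T. The Arg1 tag lies at chr10:24915388-24915413 on the minus strand and the Otc tag at chrX:10320914-10320939 on the plus strand, both in the 3′ UTR. The Nags tag, also in the 3′ UTR, lies at chr11:102149349-102149374 on the plus strand. The tags of Asl (chr5:130011902-130011927, minus strand) and Ass1 (chr2:31518726-31518751, plus strand) lie in coding sequence. None of these 26-base tags occurs at a CATG in transcripts of another gene of that release.

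The table gives Ass1 in 2 rows, and the RefSeq table of GRCm38.p6 assigns the identifier of 1 of them to Gm5424, a transcribed pseudogene on chromosome 10. Its predicted tag (chr10:62072250-62072275, plus strand) differs from that of Ass1 by 1 base, C16T, with positions counted from 1 at the C of CATG and the Ass1 base first. Over all libraries the Gm5424 row held 53 of the 218 tags counted as Ass1, or 24.3% (95% exact interval 18.8 to 30.6). It held 8 of 43 tags in HFW, 7 of 57 in NW, 18 of 58 in HF and 20 of 60 in N. Reads of the gene and its pseudogene may not be fully separated, so Ass1 is given below with and without that row.

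The libraries held 56655 to 149349 tags of genes with a symbol, so 1 tag equalled 6.70 to 17.7 CPM. HF libraries held 118882 ± 23746 tags (SD, n = 4), against 75749 ± 21588 in HFW, 74198 ± 30660 in NW and 75963 ± 16768 in N. The part of depth in the results was not tested. In a principal component analysis of 500 variable genes, N mouse 4 scored -16.5 and N mouse 8 scored 4.90, while the other N mice scored -4.16 and -1.16 on the first component, and results that depend on these mice are marked. Of 7 hepatocyte markers in the table all had tags, with summed levels of 40805 to 77637 CPM in HFW, 75036 to 86720 in NW, 45778 to 57618 in HF and 48802 to 82522 in N. The 2 neutrophil markers (S100a8, S100a9) had no tag. Of 5 cholangiocyte markers 3 had tags, with sums of 0 to 93.2 CPM over the 16 libraries, while Krt7 and Krt19 had none. Cd68 among the macrophage markers and Acta2 among the stellate cell markers also had no tag. Summed macrophage markers lay between 507 and 1276 CPM in HFW, 563 and 926 in NW, 568 and 1089 in HF and 714 and 953 in N. Summed stellate cell markers lay between 821 and 4003 CPM in HFW, 290 and 899 in NW, 400 and 3808 in HF and 498 and 982 in N. In whole liver, fewer cells of a type and less RNA per cell cannot be told apart.

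Cps1 gave most of the cycle's tags, 74.4%, and Arg1 gave 23.2%. Averaged over the 16 libraries Cps1 had 9574 CPM, rank 11 of all symbols, and Arg1 2726 CPM, rank 50. The other 4 genes were far lower: Ass1 had 155 CPM, Otc 103, Asl 41.9 and Nags 4.75. With so few tags, only Cps1, Arg1 and Ass1 passed the expression filter and were among the 1046 genes tested. The other 3 were described by their tags, and by a fit without a filter.

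**Figure D1:**
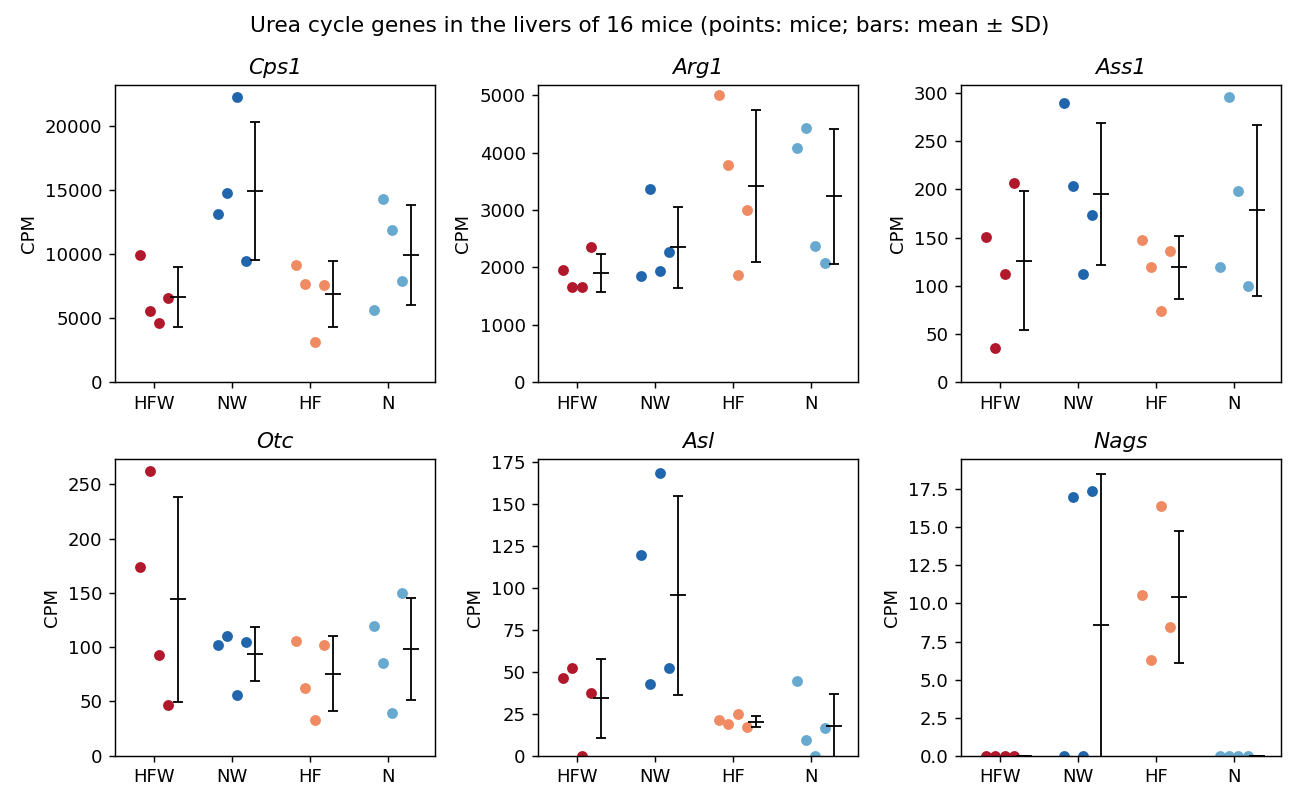
CPM (tag counts scaled by normalized library size) of the 6 urea cycle genes in each mouse by feeding group. Points are mice and bars give the mean ± SD of 4 mice, drawn only above 0. Mean Cps1 was highest in NW, whose mice overlapped with N mice. Arg1 lay at 3373 CPM or less in every mouse fed WEPAK, and also in HF mice 28 and 29 and N mice 7 and 8.

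Arg1, the enzyme that releases urea, was lower in livers of WEPAK-fed mice. In HFW mice it had 1658, 1660, 1949 and 2349 CPM, against 1859, 3001, 3780 and 5011 CPM in HF mice. In NW mice it had 1843, 1929, 2260 and 3373 CPM, against 2076, 2369, 4076 and 4424 CPM in N mice. The groups overlapped on both diets: HF mouse 28 lay among the HFW mice, and NW mice 12 and 20 lay above N mouse 8. Group means were 1904 ± 326 CPM in HFW, 2351 ± 705 in NW, 3413 ± 1326 in HF and 3236 ± 1185 in N (SD, n = 4 each).

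Averaged over both diets, Arg1 fell by 0.65 on the log2 scale with WEPAK (SE 0.21, a ratio of 0.639, adjusted p = 0.0187, quasi-likelihood test of edgeR, adjusted over 1046 genes after Benjamini and Hochberg). Of 8 WEPAK-fed mice 7 lay below the mean of mice on the same diet without the extract. It was the 1 urea cycle gene of the 3 tested that passed in this comparison, in which 31.3% of all tested genes passed and 16.1% were lower. A share of 1 in 3 is near that background, so the count does not set the cycle apart from other genes. Leaving out HF mouse 23 gave -0.53 (adjusted p = 0.0605, edgeR) and leaving out N mouse 5 gave -0.55 (adjusted p = 0.0519, edgeR), so the call rests on those mice. Without N mice 4 and 8 it was -0.72 (adjusted p = 0.0138, edgeR).

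On the high-fat diet alone the Arg1 difference of HFW minus HF was -0.84 (SE 0.30, adjusted p = 0.0639 by edgeR), above the threshold of 0.05, with 4 of 4 HFW mice below the HF mean. It passed with no filter (-1.06, adjusted p = 0.0110, edgeR), without HF mouse 28 (-1.05, adjusted p = 0.0193, edgeR), without N mouse 4 (-0.85, adjusted p = 0.0443, edgeR) and without N mouse 8 (-0.85, adjusted p = 0.0477, edgeR). Without each of the other mice in turn Arg1 missed the threshold, with values as small as -0.62 and an adjusted p up to 0.227 (edgeR). Leaving out HF mouse 28, N mouse 4 or N mouse 8 gave 150, 142 and 134 calls over all genes, against 103. On the normal diet the Arg1 difference of NW minus N was -0.46 (SE 0.30, adjusted p = 0.320, edgeR). The difference between the 2 extract effects was itself -0.38 (SE 0.42, adjusted p = 0.998, edgeR), so neither diet was shown to respond more. Of all tested genes 9.85% passed in HFW minus HF (4.21% higher, 5.64% lower) and 11.0% in NW minus N (3.63% higher, 7.36% lower). None of the 3 tested urea cycle genes passed in either by edgeR, DESeq2 or limma-voom. At an unadjusted p under 0.05 edgeR gave 1 in HFW minus HF and 0 in NW minus N. Over all 1046 tested genes it gave 299 and 298. The high-fat diet gave no call for Arg1: HFW minus NW was -0.31 (SE 0.30) and HF minus N 0.07 (SE 0.29). In the order of group means, HF, N, NW and HFW, no neighbouring groups differed past the threshold.

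Cps1, which fixes ammonia as carbamoyl phosphate and sets the pace of the cycle, had its lowest levels on the high-fat diet. HFW mice had 4565, 5504, 6567 and 9908 CPM and NW mice 9456, 13086, 14776 and 22227 CPM. Of the HFW mice only mouse 34 exceeded the lowest NW mouse. HF mice had 3120, 7595, 7641 and 9138 CPM and N mice 5623, 7857, 11871 and 14246 CPM. These ranges overlapped widely, although all HF mice lay below the N mean. Means were 6636 ± 2330 CPM in HFW, 14886 ± 5373 in NW, 6874 ± 2603 in HF and 9899 ± 3883 in N (SD, n = 4 each).

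Averaged over both extract states, the Cps1 difference with the high-fat diet was -0.85 on the log2 scale (SE 0.23, a ratio of 0.557), with 8 of 8 high-fat mice below the mean of the normal-diet group. By edgeR it missed the threshold (adjusted p = 0.0617). The difference passed with no filter (-0.73, adjusted p = 0.0192, edgeR), with the Wald test of DESeq2 (-0.83, adjusted p = 0.0306), without N mouse 4 (-0.94, adjusted p = 0.00862, edgeR) and without N mice 4 and 8 (-1.02, adjusted p = 0.00827, edgeR). Without each of the other mice in turn the difference missed the threshold, with an adjusted p up to 0.146 (edgeR). The settings in which Cps1 passed also gave more calls over all genes than the 6 of the main fit. These were 30 of 10171 genes with no filter, 34 with DESeq2, 107 without N mouse 4 and 55 without N mice 4 and 8. In the main fit of this comparison 0.574% of all tested genes passed by edgeR. No urea cycle gene of the 3 tested passed by edgeR or limma-voom. By edgeR 2 of them had an unadjusted p under 0.05, as had 215 of all 1046 tested genes.

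With the extract in both diets, Cps1 in HFW minus NW was -1.16 (SE 0.33, a ratio of 0.447, adjusted p = 0.175, edgeR). This was the largest log2 difference of Cps1 among the 6 contrasts plotted, and 0 of the 1046 genes passed there by edgeR, DESeq2 or limma-voom (126 had an unadjusted p under 0.05 by edgeR, 1 of them a urea cycle gene). Without the extract, HF minus N was -0.53 (SE 0.33, adjusted p = 0.615, edgeR). There 0.0956% of all tested genes passed, and 0 urea cycle genes did by any of the 3 tools. At an unadjusted p under 0.05 the urea cycle count was also 0, against 103 of the 1046 genes by edgeR. The difference between the 2 diet effects, -0.64 (SE 0.46, adjusted p = 0.998, edgeR), did not pass. For Cps1, Arg1 and Ass1 the compared groups overlapped in every contrast. Over all tested genes the share without overlap was 3.06% in HF minus N, 15.7% in HFW minus HF, 15.5% in NW minus N, 8.80% in HFW minus NW, 5.45% in the mean extract effect and 0.191% in the mean diet effect.

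The extract gave no Cps1 call, and the differences that involve the N group depended on N mice 4 and 8. NW minus N was 0.59 (SE 0.33, adjusted p = 0.250, edgeR), HFW minus HF was -0.05 (SE 0.33, adjusted p = 0.937, edgeR), and the mean extract effect was 0.27 (SE 0.23, adjusted p = 0.417, edgeR). Without N mice 4 and 8, Cps1 had 0.16 in NW minus N (adjusted p = 0.879, edgeR) and 0.0336 in the mean extract effect (adjusted p = 0.935, edgeR). Likewise HF minus N was then -0.90 (adjusted p = 0.331, edgeR) and the interaction -0.25 (adjusted p = 0.992, edgeR). The sign in HFW minus HF turned positive without HF mouse 23 or 25 or without HFW mouse 36 or 38. In the order of means, NW, N, HF and HFW, no neighbouring groups differed past the threshold. Albumin (Alb) averaged 4611 ± 901 CPM in HFW, 6200 ± 1281 in NW, 4233 ± 1136 in HF and 5663 ± 1131 in N (SD, n = 4 each). Summed over the 7 hepatocyte markers, NW was likewise the highest group and lay wholly above HF. Most of that sum was 1 gene, Apoa2, with means of 66902 CPM in NW and 44806 in HF. The summed means were 80595 CPM in NW and 51711 in HF. The part of these markers in the Cps1 levels was not tested.

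**Figure D2:**
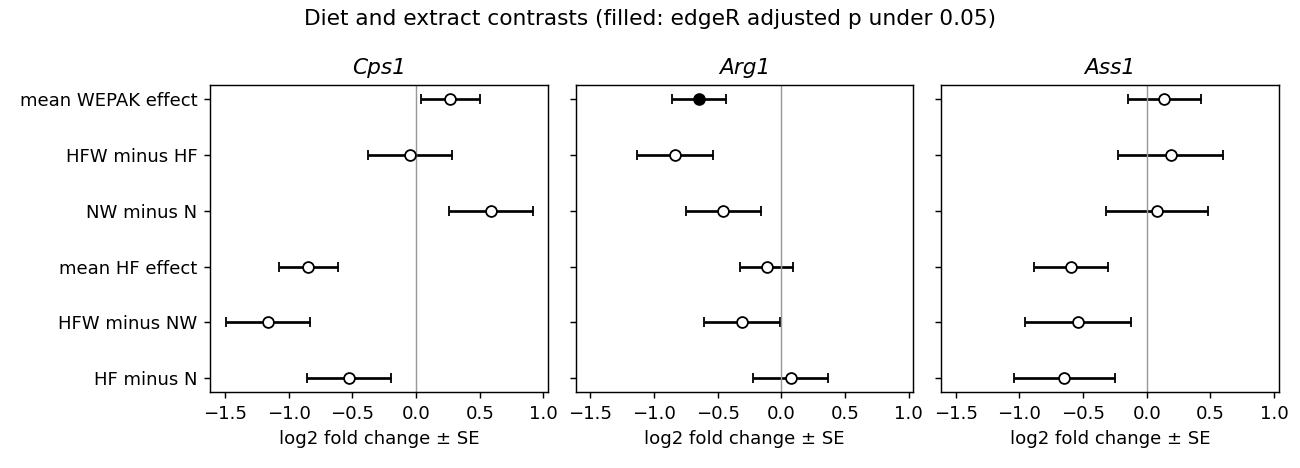
Log2 fold change ± SE (x axis) of Cps1, Arg1 and Ass1 in 6 contrasts (rows) from the fit of all 16 mice. Filled points passed an edgeR adjusted p of 0.05: the 1 filled point is Arg1 in the mean WEPAK effect, at -0.65.

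Because both genes were counted in the same library, the number of Cps1 tags per Arg1 tag does not depend on how libraries are scaled. The ratio was 2.75, 2.80, 3.32 and 5.08 in HFW mice, 4.18, 4.38, 7.10 and 11.52 in NW mice, 1.68, 1.82, 2.02 and 2.53 in HF mice and 1.38, 3.22, 3.78 and 5.01 in N mice. All HFW mice lay above all HF mice. NW and N mice overlapped, and N mouse 4 had the lowest ratio of all libraries. Means were 3.49 ± 1.09 in HFW, 6.80 ± 3.42 in NW, 2.01 ± 0.373 in HF and 3.35 ± 1.51 in N (SD, n = 4 each). The ratio was taken up after the values were seen and is given as a description without a test.

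**Figure D3:**
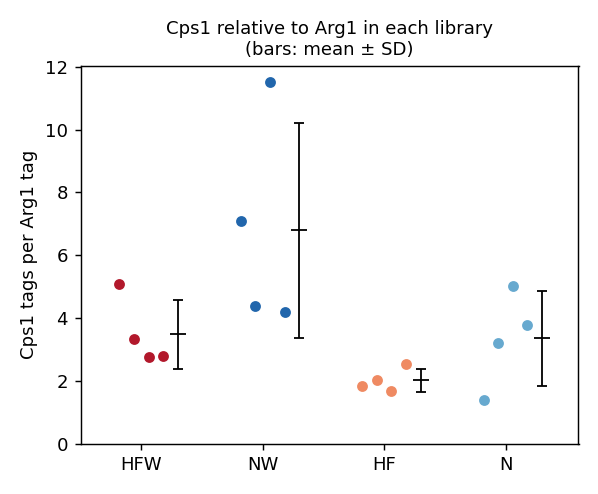
Number of Cps1 tags per Arg1 tag (y axis) in each library by feeding group, with mean ± SD of 4 mice. HFW mice lie at 2.75 to 5.08, above all HF mice at 1.68 to 2.53.

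As a share of the tags of the cycle, Cps1 made up 74.2% ± 4.69 in HFW, 83.4% ± 5.60 in NW, 65.0% ± 3.87 in HF and 72.5% ± 11.2 in N (SD, n = 4 each). Arg1 made up 22.3% ± 4.58 in HFW, 14.2% ± 5.22 in NW, 32.8% ± 3.76 in HF and 25.2% ± 10.8 in N. The remaining 4 genes together held between 1.38% and 4.65% of the cycle's tags in every mouse. The sum of all 6 genes was 8844 ± 2530 CPM in HFW, 17630 ± 5281 in NW, 10511 ± 3905 in HF and 13430 ± 4287 in N. Its group order, NW, N, HF and HFW, is that of Cps1, which supplies most of it.

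Ass1, which brings in the second nitrogen of urea as aspartate, passed no comparison. With both rows it had 34.9, 112, 151 and 207 CPM in HFW mice, 112, 174, 204 and 290 in NW mice, 73.7, 119, 136 and 147 in HF mice and 99.7, 119, 199 and 296 in N mice. All groups overlapped, and these values rest on 2 to 31 tags a library. In HFW mouse 36, at 34.9 CPM, the 2 tags were both of the Gm5424 row. In N mouse 4 that row held 4 of the 8 tags. The mean difference with the high-fat diet was -0.60 (SE 0.29, adjusted p = 0.239, edgeR), and 7 of 8 high-fat mice lay on its side. Without the tags of the Gm5424 row it was -0.60 (SE 0.35, adjusted p = 0.328, edgeR). The mean extract effect on Ass1 was 0.14 (SE 0.29, adjusted p = 0.752, edgeR), and 0.42 (SE 0.35, adjusted p = 0.393, edgeR) without that row. It turned negative without HFW mouse 40 and without N mice 4 and 8.

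Otc, the mitochondrial enzyme that makes citrulline, had between 3 and 15 tags in each library. Its level was 47.0, 93.2, 174 and 262 CPM in HFW mice, 56.2, 102, 104 and 110 in NW mice, 32.8, 62.6, 102 and 105 in HF mice and 39.7, 85.8, 119 and 149 in N mice. All 4 groups overlapped. The mean difference with WEPAK was 31.7 CPM (two-sided exact permutation within diets, p = 0.316), and that with the high-fat diet 13.9 CPM (p = 0.663, exact permutation). In the unfiltered fit no Otc contrast passed, the mean extract effect being 0.32 (SE 0.33, adjusted p = 0.921, edgeR).

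Asl, the lyase that frees arginine, was counted most often in NW livers. It had 7, 5, 9 and 3 tags in the NW mice (24 in all), against 3, 1, 0 and 1 tags in the N mice (5 in all). In CPM the lowest NW mouse, with 42.5, lay below the highest N mouse, with 44.6. HFW mice had 4, 3, 0 and 4 tags and HF mice 2, 3, 3 and 2. Pooled over 4 libraries this was 36.3 CPM in HFW (95% Poisson interval 18.1 to 65.0), 80.9 in NW (51.8 to 120.3), 21.03 in HF (10.1 to 38.7) and 16.5 in N (5.34 to 38.4). These intervals cover counting error only, and PCR copies are not separate molecules.

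The mean extract effect on Asl was 45.9 CPM, with 7 of 8 WEPAK-fed mice above the mean of mice on the same diet without it (two-sided exact permutation within diets, p = 0.0110). NW minus N was 78.0 CPM (exact permutation p = 0.0571, where 0.0286 is the smallest possible). These p-values are not adjusted for the 12 permutation tests made on Otc and Asl. In the unfiltered fit over all genes with a tag the mean effect was 1.44 (SE 0.53, adjusted p = 0.158 by edgeR) and missed the threshold, as did NW minus N at 2.29 (SE 0.74, adjusted p = 0.159, edgeR). Without N mice 4 and 8, Asl entered the filtered fit and passed in the mean effect (2.21, SE 0.77, adjusted p = 0.0382, edgeR).

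Nags, which makes the activator of Cps1, was near the limit of detection with 8 tags in all. It had 0 tags in HFW, 3 in NW (mice 12 and 20), 5 in HF (all 4 mice) and 0 in N. For the groups with 0 tags, the 95% Poisson interval of the pooled level reached 12.2 CPM in HFW and 12.1 CPM in N. The pooled level was 10.1 CPM in NW (95% Poisson interval 2.08 to 29.5) and 10.51 CPM in HF (3.41 to 24.5). In the unfiltered fit HF minus N was 3.14 (SE 1.49, adjusted p = 0.757, edgeR) and HFW minus HF -3.14 (SE 1.49, adjusted p = 0.600, edgeR). No Nags contrast passed. The HF libraries together held 475527 tags, against 302995 in HFW, 296790 in NW and 303852 in N, and the part of depth was not tested. One of its 2 rows, with 6 of the 8 tags, has an identifier that the RefSeq table used here does not list.

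By Pearson's r of log2 CPM over the 16 mice, genes most like Arg1 included Abat, an enzyme of GABA and beta-alanine breakdown (r = 0.80), and the kinase Map2k4 (0.78). Those most like Cps1 were the ribosomal protein gene Rpl38 (0.79), Grpel1, a cochaperone of mitochondrial Hsp70 (0.75), and the peroxisomal pipecolate oxidase Pipox (0.75). Those most like Ass1 included Pipox (0.74) and Ppp2r1a, a scaffold subunit of protein phosphatase 2A (0.73). Among the 3 cycle genes r was 0.20 between Cps1 and Arg1, 0.58 between Cps1 and Ass1 and 0.36 between Ass1 and Arg1. After each group's mean was taken out, r was 0.40 between Cps1 and Arg1, 0.43 between Cps1 and Ass1 and 0.46 between Ass1 and Arg1, so the pairs differed less within groups. All these r values describe libraries that share a scaling and 4 diet groups.

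Genes that feed, use or regulate the cycle were grouped in 6 lists, and 27 of their genes were tested. In HF minus N 0 of the 27 passed by edgeR, DESeq2 or limma-voom, and 4 had an unadjusted p under 0.05 by each. Of all 1046 tested genes 103 had such a p by edgeR, 84 by DESeq2 and 109 by limma-voom. In the mean extract effect 7 of the 27 passed by edgeR, against the 31.3% of all tested genes given above. Of 14 carriers of the cycle and of its amino acids 4 were tested, and in the mean extract effect 1 fell and 0 rose, with a median of -0.34 against 0.03 over all tested genes. The gene that fell was Slc25a13 (citrin), which exports mitochondrial aspartate, the substrate of Ass1. It had 37.6, 46.4, 74.5 and 105 CPM in HFW mice and 49.1, 119, 232 and 232 CPM in HF mice. NW mice had 17.4, 34.1, 59.5 and 74.9 CPM and N mice 79.4, 85.8, 166 and 223 CPM. All NW mice lay below all N mice, while HF mouse 28 lay among the HFW mice. Its mean effect was -1.40 (SE 0.37, 8 of 8 mice lower, adjusted p = 0.00560, edgeR), and without N mice 4 and 8 it was -1.10 (adjusted p = 0.0515, edgeR). The arginine and ornithine importer Slc7a2 had -0.96 (SE 0.35, adjusted p = 0.378, edgeR) in HF minus N, and passed there without N mouse 4 (-1.20, adjusted p = 0.0342, edgeR). Without each of the other mice in turn Slc7a2 did not pass there, its smallest difference being -0.56 without N mouse 5, and the adjusted p reached 0.924 without N mouse 8. The glutamine transporter Slc38a3 had -0.45 (SE 0.18, adjusted p = 0.0538, edgeR) in the mean extract effect, 8 of 8 mice lower. It passed there with DESeq2 size factors (-0.46, adjusted p = 0.0482, edgeR), library totals (-0.52, adjusted p = 0.0317, edgeR) and the Wald test of DESeq2 (-0.47, adjusted p = 0.0322), and also without NW mouse 20, HF mouse 28 or N mice 4 and 8. Without single mice Slc38a3 ran from -0.51 to -0.35 (adjusted p 0.0265 to 0.161, edgeR). The amino acid transporter Slc38a4 had -0.23 (SE 0.18) with the extract and -0.37 (SE 0.25) in HF minus N.

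Of 14 genes that supply ammonia, glutamate, aspartate or bicarbonate 5 were tested, and in the mean extract effect 2 fell and 0 rose, with a median of -0.37. Fh1, fumarase, which takes up the fumarate that Asl releases, had 34.9 to 104 CPM in HFW mice and 180 to 275 CPM in HF mice. These groups did not overlap, and Fh1 fell by 1.60 in HFW minus HF (SE 0.41, adjusted p = 0.0114, edgeR). Over both diets it fell by 1.17 (SE 0.29, adjusted p = 0.00342, edgeR), lower in 7 of 8 mice. Without HF mouse 25, HFW minus HF was -1.43 (adjusted p = 0.0665, edgeR). Gpt2, mitochondrial alanine aminotransferase, fell by 0.63 in the mean effect (SE 0.24, 8 of 8 mice lower, adjusted p = 0.0396, edgeR). That call was lost with DESeq2 (adjusted p = 0.0558), with limma-voom (adjusted p = 0.0607), with no filter, without any of 10 mice in turn and without N mice 4 and 8. Glud1, which frees ammonia from glutamate, had -0.37 (SE 0.20) in the mean extract effect and 0.48 (SE 0.28) in HF minus N. Car5a, the mitochondrial carbonic anhydrase that provides bicarbonate to Cps1, had 0.35 (SE 0.20) and -0.46 (SE 0.28), and neither gene passed.

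Among 24 genes of amino acid breakdown 7 were tested, and in the mean extract effect 1 rose and 1 fell, with a median of 0.25. Of all tested genes 15.2% were called higher in that effect. Tdo2, which opens tryptophan breakdown, rose by 1.10 in the mean effect (SE 0.27, 8 of 8 mice higher, adjusted p = 0.00320, edgeR). It rose by 1.34 in NW minus N (SE 0.39, adjusted p = 0.0206, edgeR), with 191 to 290 CPM in NW mice and 66.7 to 132 CPM in N mice. That call on the normal diet was lost without N mouse 4 or 5, NW mouse 11 or 15, or N mice 4 and 8, and with no filter (adjusted p = 0.161, edgeR). In HF minus N 6 of the 7 genes were negative, with a median of -0.45 against -0.02 over all tested genes, and 0 passed; the smallest p were those of Aspg (-0.56, SE 0.24) and Prodh2 (-0.69, SE 0.38).

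Of 16 regulators of urea cycle transcription 5 were tested, and in the mean extract effect 1 rose and 1 fell, with a median of 0.38. Creb3l3, a liver transcription factor held in the endoplasmic reticulum membrane, rose by 0.69 (SE 0.20, 8 of 8 mice higher, adjusted p = 0.0102, edgeR). Its mean was 3231 ± 1115 CPM in HFW, 3734 ± 496 in NW, 1689 ± 561 in HF and 2724 ± 848 in N (SD, n = 4 each). In HFW minus HF it rose by 0.93 (SE 0.29, adjusted p = 0.0341, edgeR), a call lost without HF mouse 23 or 25 or HFW mouse 36, 38 or 40. With no filter both calls were lost, at 0.69 for HFW minus HF (adjusted p = 0.308, edgeR) and 0.56 for the mean effect (adjusted p = 0.0859, edgeR). In HF minus N Creb3l3 had -0.69 (SE 0.29, adjusted p = 0.455, edgeR). Hnf4a, a nuclear receptor needed for hepatocyte identity, and the glucagon receptor Gcgr were tested and passed in none of the 7 contrasts.

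**Figure D4:**
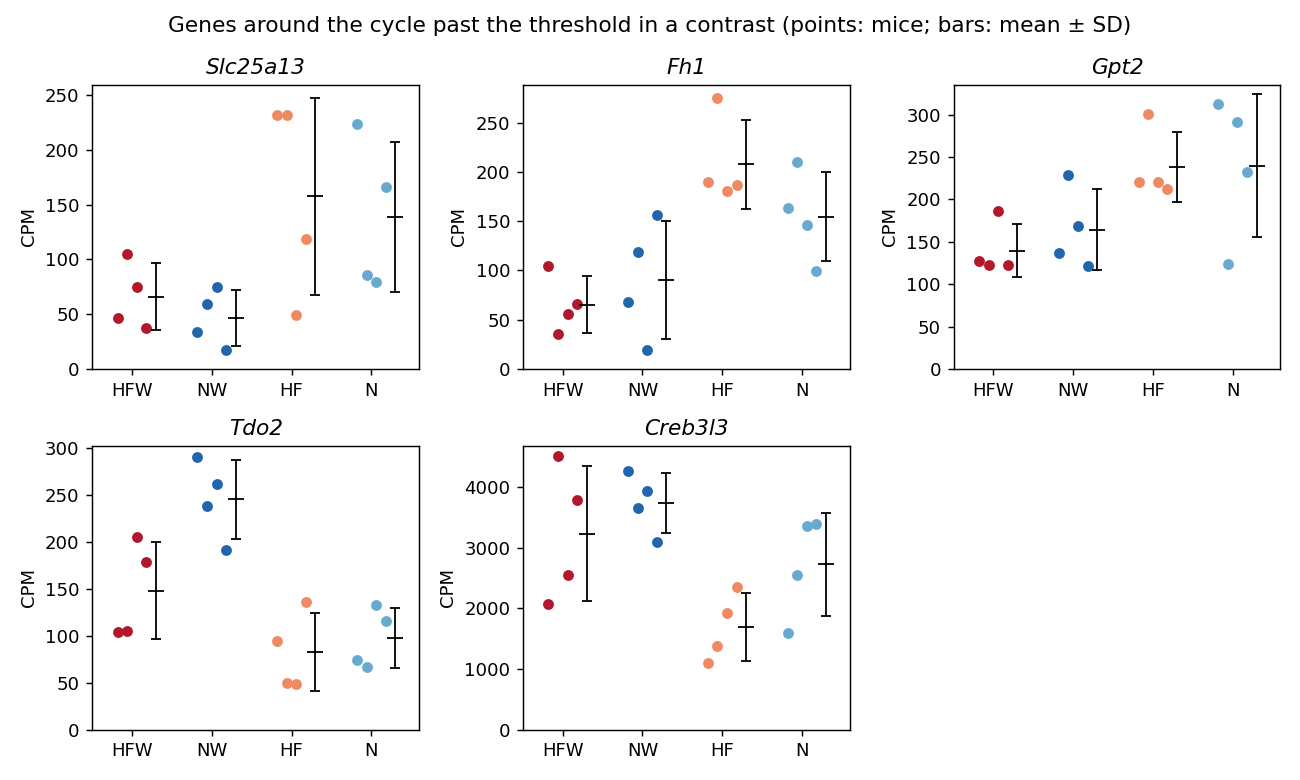
CPM in each mouse (points) by feeding group, with mean ± SD of 4 mice, of 5 genes around the cycle that passed the edgeR test in at least 1 contrast. Slc25a13, Fh1 and Gpt2 have lower means in HFW than HF and in NW than N, and Tdo2 and Creb3l3 higher ones.

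Of 17 genes of ornithine, arginine and polyamine use 3 were tested: Agmat, Gamt and Oat. By edgeR 0 passed in any contrast. In the mean extract effect 1 had an unadjusted p under 0.05, as had 445 of all 1046 tested genes. It was Gamt, the last enzyme of creatine synthesis, at -0.46 (SE 0.21, adjusted p = 0.0901, edgeR). Oat, the mitochondrial enzyme that breaks ornithine down, had 0.22 (SE 0.28) and Agmat 0.23 (SE 0.20). Of 7 genes of the cells around the central vein, where ammonia that escapes the cycle is bound as glutamine, 3 were tested and 0 passed. Glul, glutamine synthetase, had 0.71 (SE 0.37, adjusted p = 0.136, edgeR) and the glutamate transporter Slc1a2 0.50 (SE 0.32, adjusted p = 0.250, edgeR) in the mean extract effect. Cyp2e1, a cytochrome of the same cells, had -0.88 (SE 0.58, adjusted p = 0.643, edgeR) in HF minus N. That value rests on N mouse 8, which had 9568 CPM of Cyp2e1 against 1443 to 3613 CPM in the other N mice, and without it the difference was -0.116 (adjusted p = 0.994, edgeR).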

How the data were processed

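Liver RNA of 16 mice was made into SuperSAGE libraries (oligo-dT cDNA, NlaIII, EcoP15I, indexed adapters, PCR), per the labels' protocols. The authors deposited raw tag counts for each RefSeq transcript and mouse, per the file headers. For tag matching, the tool, the RefSeq release and the handling of shared tags are not stated in these sources. Rows without a symbol (416, with 0.0729% of tags) and 1 row whose symbol had become a date were left out. Other date symbols were restored from RefSeq identifiers, and counts were summed per symbol. Same-group library pairs differed beyond sampling noise (chi-square per degree of freedom 2.24 to 9.64).

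Tests used edgeR 4.0.16 in R 4.3.3. Libraries were scaled by trimmed mean of M-values, and filterByExpr (minimum count 10) kept 1046 genes. A quasi-likelihood model with robust moderation and 1 mean for each of the 4 diets was fitted to the 16 libraries, and p-values were adjusted over all tested genes after Benjamini and Hochberg at 0.05. The 7 contrasts were the diet difference without the extract (HF minus N) and with it (HFW minus NW), the extract difference on each diet (HFW minus HF, NW minus N), the mean diet effect, the mean extract effect and the interaction. The SE is the log2 fold change over the square root of F. Log2 CPM used a prior count of 2. Otc and Asl, under the filter, were compared by exact permutation of mice (70 arrangements, or 4900 within strata) with scipy 1.17.1, 12 tests in all. The fit was tested on simulated data.

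The members and lists were chosen with earlier results of these data known. Named were all 6 members and other list genes that passed any contrast. Added were the 2 genes with the smallest p of each list in the mean extract effect and in HF minus N. The 3 genes most correlated with each tested member were named too, and Alb, Apoa1, Apoa2, Ttr and Fabp1 as hepatocyte references. Some genes that this rule names are not reported here. Hnf4a and Gcgr were named outside that rule. Alternatives were size factors and the Wald test of DESeq2 1.42.0, limma-voom (limma 3.58.1), library totals, other filters, a fit of the compared groups only, a fit without robust moderation, testing each RefSeq row, leaving the 10 most abundant genes out of library size, and leaving out each mouse. Chosen after seeing the data were leaving out N mice 4 and 8 and leaving the Gm5424 row out of Ass1.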

Additional observations from a re-analysis of the deposited data

Results flagged for a closer look

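Otc in NW mouse 15 was 56.2 CPM, below the 102 to 110 CPM of the other NW mice, and its gap to the nearest of them was 0.851 of the group's range. The value rests on 3 tags. Of 22 gene and group combinations looked at, it was the 1 with a mouse this far from the rest, and chance marks about 1 in 20.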

How the results depend on the processing

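No paired analysis was possible because each mouse number occurs in 1 group only. Over the alternatives other than leaving out single mice, the Arg1 mean extract effect ran from -0.77 to -0.59 (adjusted p 0.00287 to 0.0348), and without single mice from -0.74 to -0.53 (adjusted p 0.00736 to 0.0605). Of the recomputed values of Cps1, Arg1 and Ass1, 541 kept direction and side of the threshold, 26 changed sign, 9 newly passed and 2 no longer passed. The count of urea cycle genes that passed in HFW minus HF was 1 in place of 0 with no filter and without N mice 4 and 8, and 0 to 1 without single mice. Asl newly entered the filter without N mice 4 and 8, through its NW counts. In the mean extract effect the count was then 2 in place of 1, and it was 0 to 1 without single mice. In the mean diet effect it was 1 in place of 0 with no filter, with DESeq2 and without N mice 4 and 8, and 0 to 1 without single mice.

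The Ass1 sign changed with no filter in HFW minus HF (-0.0145) and in the interaction (-0.0575). It changed in the interaction for the RefSeq rows (-0.0337) and without the Gm5424 tags (-0.0181). Without N mice 4 and 8 it changed in NW minus N (-0.37) and in the mean extract effect (-0.11). Without single mice, Ass1 ran from -0.22 to 0.44 in HFW minus HF, -0.13 to 0.50 in NW minus N, -0.0321 to 0.33 in the mean extract effect and -0.37 to 0.31 in the interaction. Cps1 ran from -0.31 to 0.10 in HFW minus HF. Arg1 ran from -0.14 to 0.32 in HF minus N and from -0.23 to 0.0025 in the mean diet effect, and Agmat from -0.0171 to 0.23 in HF minus N. The cause of these changes was not tested.

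Over all settings the count of all genes that passed was 0 to 31 in HF minus N (1 as reported), 40 to 156 in HFW minus HF (103), 31 to 178 in NW minus N (115), 254 to 386 in the mean extract effect (327) and 0 to 107 in the mean diet effect (6). Depth limits Otc, Asl and Nags most, with at most 15, 9 and 2 tags in a library.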
